A study of Mus musculus with 12 samples.

Results

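The genes described here encode the receptors for glutamate and GABA, the main excitatory and inhibitory transmitters of the brain, examined in peak lists from mouse osteoblast-lineage cells. They were chosen by symbol alone, as the protein-coding genes whose names begin with Gria, Grik, Grid, Grin or Grm and a digit, or with Gabr, without use of any measured value. The rule took 46 of the 21775 protein-coding genes placed on chromosomes 1 to 19, X and Y: 4 AMPA receptor genes, 5 kainate receptor genes, 2 delta receptor genes, 7 NMDA receptor genes, 8 metabotropic glutamate receptor genes and 19 GABA-A receptor genes. The last of the 46, Grid2ip, encodes a protein that interacts with a delta receptor and is not itself a receptor. The GABA-B receptor genes Gabbr1 and Gabbr2 fall outside the rule. A gene's window was its RefSeq span with 5 kb on each side, and a gene was counted as holding a peak when at least 1 bp of a peak lay in that window.

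The data were chromatin immunoprecipitation sequencing with an antibody to MACF1, a large cytoskeletal linker protein of actin filaments and microtubules, in MC3T3-E1 cells, a mouse line that can be grown into osteoblasts. One group was labelled control and the other carried a knockdown of MACF1; the labels name the cell type as osteoblast for both and give no further allele, agent, dose or time. Each group had 3 immunoprecipitates, labelled 1, 2 and size3, and 3 matching inputs, 12 samples in all, and the series compared where MACF1 antibody signal lay in the genome in control and knockdown cells. The labels do not say that the libraries of a group came from separate cultures, so p-values measure the spread between these libraries only. The meaning of the label size3 is not given here.

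Ionotropic glutamate receptors are ligand-gated cation channels built as tetramers, and the AMPA, kainate, NMDA and delta classes differ in subunit makeup and in speed. Metabotropic glutamate receptors are G-protein-coupled receptors that act through second messengers, and GABA-A receptors are pentameric chloride channels. These genes are best known from neurons, and many have long introns; some glutamate receptors have also been described in bone cells. The lists record where an antibody enriched DNA and hold no measure of transcription, so neither the labelled cell type, nor the knockdown, nor the expression of any receptor could be checked from them.

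The 6 lists differed widely in length and in the reads behind them. List length separated the groups, while read number and redundant rate overlapped between them. Control lists held 198 to 2196 peaks and knockdown lists 4513 to 21398. Reads after duplicate removal ranged from 10698067 to 33085606 in control and from 5575205 to 18454330 in knockdown immunoprecipitates. The redundant rate was 0.25 in control 1, 0.16 in control 2, 0.51 in knockdown 1 and 0.65 in knockdown 2. It was only 0.01 in control size3 and 0.02 in knockdown size3. The lowest read number and the highest redundant rate both belonged to knockdown 2. The false discovery rate that the peak caller attached to peaks in receptor gene windows was 72.4% to 100% in the 3 control libraries, 100% throughout in knockdown 2, and 1.32% to 13.0% in knockdown 1 and knockdown size3. Of these, list length and read number were varied in alternatives given beside the counts and in the closing part; the part of duplicates was not tested.

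More receptor genes held a peak in each knockdown library than in any control library. Given in the order 1, 2, size3, which is kept throughout, 3, 3 and 8 of the 46 genes held a peak in the control libraries, and 33, 12 and 28 in the knockdown libraries. The groups did not overlap. Over all protein-coding genes the share with a peak was 1.39% in control 1, 0.317% in control 2 and 5.52% in control size3, and 43.9% in knockdown 1, 7.99% in knockdown 2 and 35.6% in knockdown size3. The receptor genes were above this background in all 6 lists, at 6.52%, 6.52% and 17.4% in control and 71.7%, 26.1% and 60.9% in knockdown. The mean was 24.3 ± 11.0 genes in knockdown and 4.67 ± 2.89 in control (SD, n = 3 each), a difference of 19.7 with p = 0.100 in an exact two-sided permutation test. With 3 libraries against 3 that test can give no p below 0.1. When every list was cut to its 198 best-scoring peaks, the length of the shortest list, the numbers became 1, 3 and 1 in control and 2, 0 and 0 in knockdown, and the direction turned (difference -1, exact permutation p = 0.500).

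**Figure D1:**
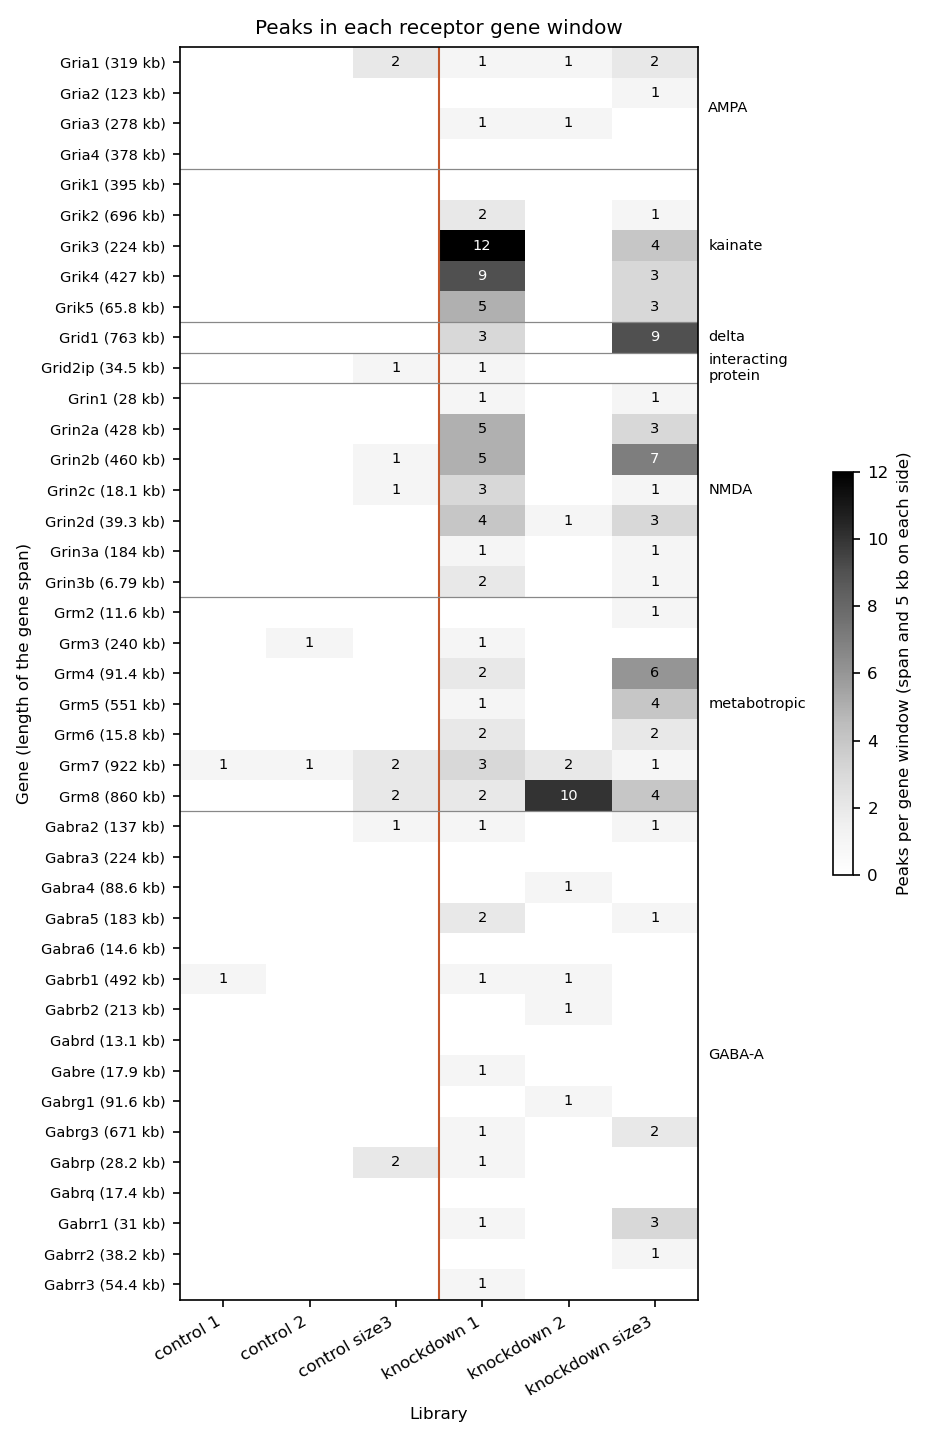
Number of peaks in the window of 41 of the 46 receptor genes (rows, grouped by class, with the length of the gene span in kb) in each of the 6 libraries (columns; control to the left of the orange line, knockdown to the right); empty cells hold no peak. The darkest cells among these rows are Grik3 in knockdown 1 with 12 peaks and Grm8 in knockdown 2 with 10, and 6 rows are empty.

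Receptor genes are long, and length went with the chance of holding a peak. Their median span was 160 kb against 17.2 kb for all protein-coding genes, and 21 of the 46 (45.7%) spanned 200 kb or more, against 4.54% of all genes. Among genes of 200 kb and over, the share with a peak was 81.0% of receptor genes against 83.1% of all genes in knockdown 1, 38.1% against 43.3% in knockdown 2 and 66.7% against 74.5% in knockdown size3. In control size3 the shares in that class were 19% and 24.5%, while in control 1 they were 14.3% and 11.7% and in control 2 14.3% and 2.43%, each of the receptor values being 3 genes. Among the 14 receptor genes under 50 kb the receptor share was the higher one in the knockdown lists and in control size3. It was 64.3% against 36.4% in knockdown 1 and 57.1% against 28.6% in knockdown size3. In knockdown 2 it was 7.14%, or 1 gene, against 3.69%. In control size3 it was 21.4%, or 3 genes, against 3.27%. Control 1 and control 2 had 0 receptor genes of that class with a peak. The middle class lay close to its background, at 63.6% against 66.1% in knockdown 1 and 54.5% against 55.9% in knockdown size3. No test was made of these differences, since genes are not replicates of a condition.

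**Figure D2:**
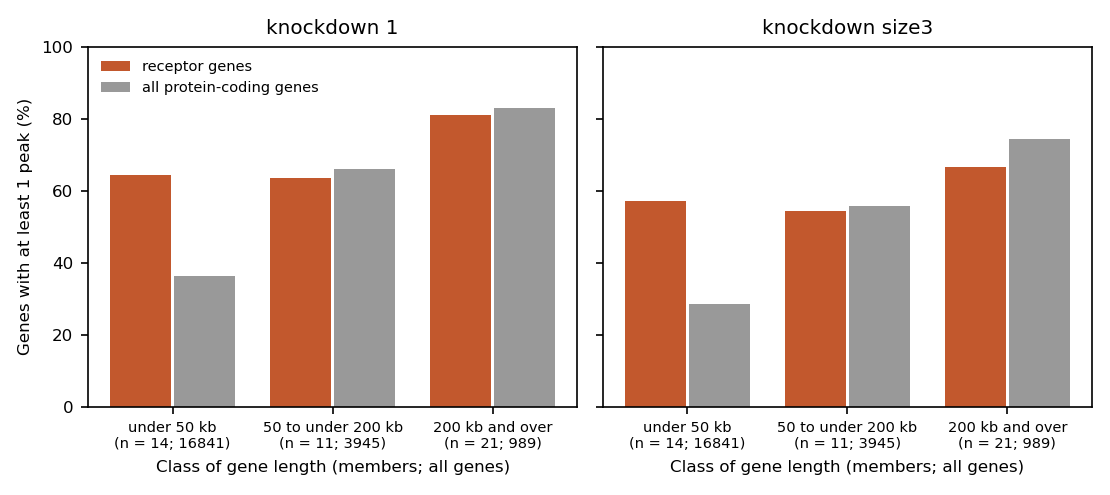
Percent of genes with at least 1 peak in knockdown 1 (left) and knockdown size3 (right) for receptor genes (orange) and all protein-coding genes (grey) in 3 classes of gene length; the numbers under each class give the receptor genes and all genes in it. Receptor genes of 200 kb and over stand at 81.0% and 66.7%, beside 83.1% and 74.5% of all genes, and those under 50 kb at 64.3% and 57.1%, beside 36.4% and 28.6%.

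Counted per length of sequence, the pooled receptor gene windows held fewer peaks than gene windows in general in the 2 longest lists, and those of genes under 50 kb held more. The merged receptor windows cover 12.5 Mb and hold 14, 3 and 12 distinct peaks in the control libraries and 85, 28 and 69 in the knockdown libraries. That is 1.12, 0.239 and 0.957 peaks per Mb in control and 6.78, 2.23 and 5.50 in knockdown, with no overlap between the groups. The mean density was 4.84 ± 2.34 in knockdown and 0.771 ± 0.467 in control (SD, n = 3 each), a difference of 4.07 peaks per Mb (exact two-sided permutation p = 0.100). All gene windows together held 0.303, 0.0602 and 1.11 peaks per Mb for the control lists and 12.5, 1.77 and 10.1 for the knockdown lists. The ratio of receptor to all-gene density was therefore 3.69, 3.97 and 0.866 in control and 0.540, 1.26 and 0.546 in knockdown, so that the receptor windows were sparser than gene windows at large in knockdown 1 and knockdown size3 and denser in control 1 and control 2. By length class, receptor windows of genes under 50 kb held 35.2 peaks per Mb against 18.4 for all genes of that class in knockdown 1, and 28.6 against 14.3 in knockdown size3. From 50 to under 200 kb the densities were 10.2 against 13.5 and 10.2 against 10.8, and at 200 kb and over 5.26 against 7.24 and 4.06 against 6.13. In the class under 50 kb, control size3 held 8.80 against 1.34 and knockdown 2 held 2.20 against 1.64. Control 1 and control 2 held 0 receptor peaks there. With lists of equal length the difference in density turned to -0.213 peaks per Mb (exact permutation p = 0.2).

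As a share of each list, the receptor windows took 1.81% of the peaks of control 1 (95% Wilson interval 1.08 to 3.02), 1.52% of control 2 (0.517 to 4.36) and 0.546% of control size3 (0.313 to 0.953). In the knockdown libraries the shares were 0.397% (0.321 to 0.491), 0.620% (0.430 to 0.895) and 0.392% (0.310 to 0.496). These intervals cover counting error only. The mean share was 0.470 ± 0.13% in knockdown and 1.29 ± 0.662% in control (SD, n = 3 each), the groups overlapped, and the difference of -0.822 percentage points gave p = 0.2 in the exact two-sided permutation test. Receptor peaks on chromosome 6 carried much of it: without that chromosome, an alternative chosen after its share of the control peaks had been seen, the control lists gave shares of 0.170%, 0.606% and 0.365%, the knockdown lists gave 0.338%, 0.241% and 0.335%, and the difference was -0.0757 percentage points (exact permutation p = 0.7).

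**Figure D3:**
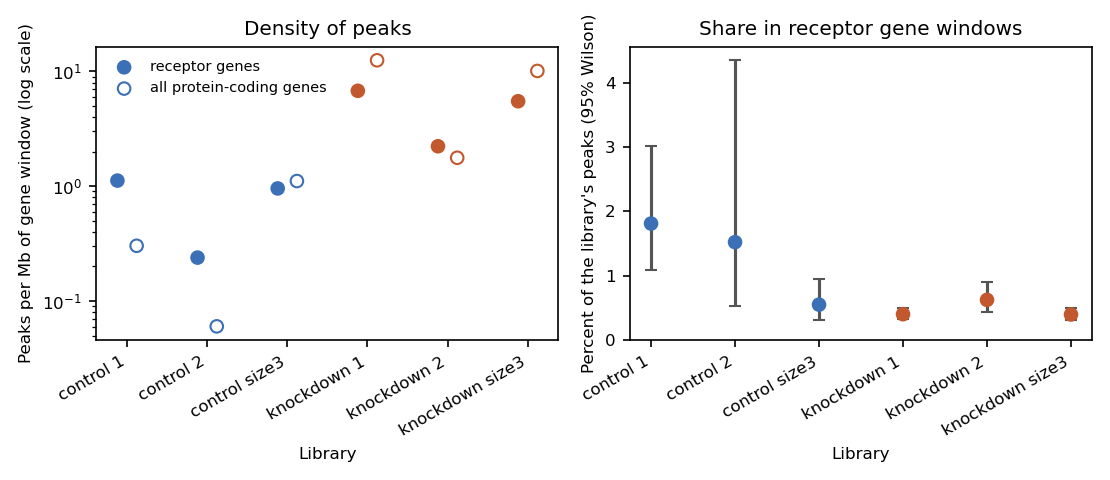
Left, peaks per Mb of gene window on a log scale for receptor genes (filled points) and all protein-coding genes (open points) in each library, control in blue and knockdown in orange; right, percent of each library's peaks that lie in receptor gene windows, with 95% Wilson intervals for counting error. The filled points lie below the open ones in knockdown 1 and knockdown size3, and the shares run from 0.392% in knockdown size3 to 1.81% in control 1.

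Among the receptor promoters with a sequence at hand, peaks from 1 library overlapped a few. RefSeq promoters of GRCm38.p6, 250 bases before to 50 after a transcription start, were at hand for 31 of the 46 genes, 39 promoters in all. A peak overlapped 6 of them (15.4%), and each of the 6 overlaps was in knockdown 1, where 12.7% of all promoters had one; in knockdown size3, 5.99% of all promoters but none of the 39 did. These 39 do not include every annotated start: for Gabra5 they hold an internal one, while a knockdown size3 peak lay over the outer start of that gene. Counted by the RefSeq spans of genes of known strand, summits within 1 kb of the gene start numbered 4 of 56 in knockdown 1, 1 of 17 in knockdown 2 and 2 of 33 in knockdown size3, and none in the control libraries. The 6 belonged to Grik3, Gabra2, Gabre, Grid2ip and Grm6 and to an internal start of Gabra5. Sequences are given for 4 of these and, for contrast, those of Grik4, which has 9 peaks elsewhere in its window in knockdown 1, and Gabra6, which has none in any library. Capitals mark CpG dinucleotides, and each sequence reads 5′ to 3′ on the strand of its gene. The positions are chr4:125490446-125490745 (+) for Grik3, chr5:71095800-71096099 (-) for Gabra2, chrX:72274672-72274971 (-) for Gabre, chr11:50850435-50850734 (+) for Grm6, chr9:42944322-42944621 (-) for Grik4 and chr11:42321023-42321322 (-) for Gabra6.
Grik3: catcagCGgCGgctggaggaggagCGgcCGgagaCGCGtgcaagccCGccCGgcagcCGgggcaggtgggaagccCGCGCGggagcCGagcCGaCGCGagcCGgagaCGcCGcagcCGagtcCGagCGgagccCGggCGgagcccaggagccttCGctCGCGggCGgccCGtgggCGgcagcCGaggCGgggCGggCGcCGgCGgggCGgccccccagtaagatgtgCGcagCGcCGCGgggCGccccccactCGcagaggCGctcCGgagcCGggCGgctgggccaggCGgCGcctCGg
Gabra2: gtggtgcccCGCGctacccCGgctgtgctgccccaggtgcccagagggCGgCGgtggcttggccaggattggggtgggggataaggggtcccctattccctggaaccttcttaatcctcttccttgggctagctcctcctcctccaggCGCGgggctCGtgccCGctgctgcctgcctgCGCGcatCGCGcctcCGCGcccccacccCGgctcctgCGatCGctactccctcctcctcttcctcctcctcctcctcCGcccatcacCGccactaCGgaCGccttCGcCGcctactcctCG
Gabre: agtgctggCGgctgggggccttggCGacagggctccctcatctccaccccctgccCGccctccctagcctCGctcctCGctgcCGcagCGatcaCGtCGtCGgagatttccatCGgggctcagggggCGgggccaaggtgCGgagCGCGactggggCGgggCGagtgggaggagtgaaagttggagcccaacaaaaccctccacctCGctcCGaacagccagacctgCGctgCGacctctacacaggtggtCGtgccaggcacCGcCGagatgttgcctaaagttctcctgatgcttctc
Grm6: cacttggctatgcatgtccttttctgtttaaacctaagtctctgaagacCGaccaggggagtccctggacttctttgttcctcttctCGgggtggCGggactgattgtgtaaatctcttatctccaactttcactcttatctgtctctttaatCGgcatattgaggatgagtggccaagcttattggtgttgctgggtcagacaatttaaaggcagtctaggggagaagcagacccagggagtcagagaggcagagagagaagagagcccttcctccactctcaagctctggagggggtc
Grik4: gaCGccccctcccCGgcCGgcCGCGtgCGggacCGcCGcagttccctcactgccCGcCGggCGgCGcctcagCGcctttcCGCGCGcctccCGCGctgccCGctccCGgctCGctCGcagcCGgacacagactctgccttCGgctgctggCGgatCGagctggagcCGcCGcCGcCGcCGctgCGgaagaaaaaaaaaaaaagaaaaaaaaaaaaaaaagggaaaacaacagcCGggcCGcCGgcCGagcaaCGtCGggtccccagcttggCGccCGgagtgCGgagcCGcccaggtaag
Gabra6: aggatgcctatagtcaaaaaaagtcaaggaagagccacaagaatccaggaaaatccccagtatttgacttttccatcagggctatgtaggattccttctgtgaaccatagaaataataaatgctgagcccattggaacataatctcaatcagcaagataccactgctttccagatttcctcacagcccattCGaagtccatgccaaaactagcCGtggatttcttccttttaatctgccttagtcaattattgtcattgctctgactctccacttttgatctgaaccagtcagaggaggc

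The promoters under a peak were mostly rich in CpG, and so were many without one. Grik3 had 50 CpG in 300 bases, the most of the 39, and its peak spanned chr4:125489426-125492365 with 160 reads and a fold enrichment of 3.45. Gabra2 had 25 under a peak of 129 reads at 4.64-fold, Gabre 24 under 40 reads at 5.27-fold, and Grid2ip 14 under 124 reads at 4.94-fold. The internal Gabra5 promoter had 13. Grm6 stood apart with 4, under a peak of 137 reads at 3.35-fold. Grik4, with 42 CpG, had no promoter peak. The median was 19 CpG in the 6 promoters with a peak, 11.0 in the 33 without and 7 over all 32851 promoters, and 22.0 over all promoters with a knockdown 1 peak. Read against promoters of like CpG content, 5 of 25 receptor promoters with 10 or more CpG had a knockdown 1 peak (20.0%, against 23.2% of all such promoters), and 1 of 14 with fewer had one (7.14%, against 4.63%).

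**Figure D4:**
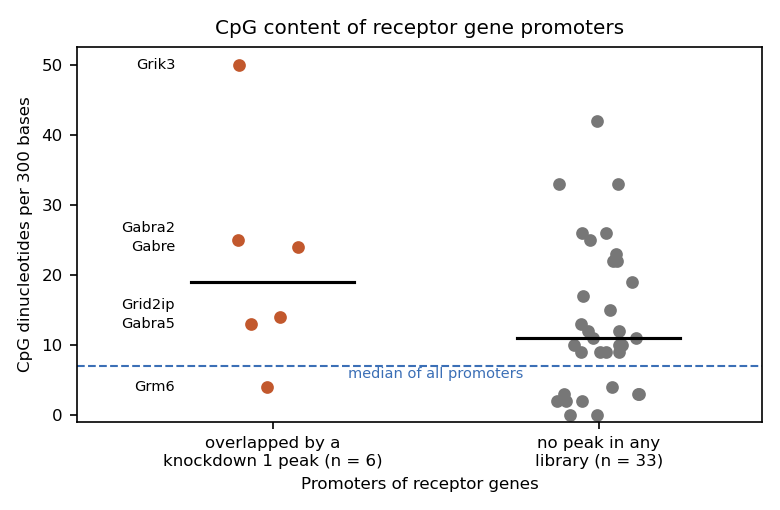
CpG dinucleotides per 300 bases in the 39 RefSeq promoters of receptor genes, split by whether a knockdown 1 peak overlaps them; black bars are medians (19 and 11.0) and the dashed line is the median of all promoters (7). Grik3 has the highest count at 50 and Grm6 the lowest of the 6 at 4, and the promoters with no peak run up to 42.

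Both strands of the promoters were searched for 3 short words. The word CTTTGAA, a form of the sequence that TCF and LEF proteins bind, was in 2 of the 39 receptor promoters (5.13%) and in 5.14% of all promoters. Both are overlapping promoters of Gabra3 that hold the same site, so a single site is counted in each. The E-box CAGGTG was in 9 of the 39 (23.1%, against 20.2% of all promoters). These were 3 of the 6 with a peak, at Grik3, Gabra2 and Gabre, and 6 of the 33 without. Over all promoters with a knockdown 1 peak the E-box was in 20.3%. The E2F-type word GCGGGAA was in none of the 39, against 4.60% of all promoters. None of these words contains another. Such a match describes letters in a window and shows no binding.

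The AMPA receptor genes encode the channels of fast excitatory transmission. Over the 4 genes there were 0, 0 and 2 peaks in the control libraries and 2, 2 and 3 in the knockdown libraries. Their density of 1.76 and 2.64 peaks per Mb in knockdown 1 and knockdown size3 was below the 12.5 and 10.1 of all genes, while the 1.76 of knockdown 2 was next to the all-gene 1.77 and the 1.76 of control size3 above the all-gene 1.11. Gria1 (chr11:57011571-57330244, 319 kb) had all of the control ones, with 0, 0 and 2 peaks in control and 1, 1 and 2 in knockdown, no 2 of them in the same place. Its peak at chr11:57062015-57062658 had the highest fold enrichment of any receptor peak in control size3, 11.54 from 16 reads, and its knockdown 2 peak of 15 reads reached 20.16-fold. Gria3 (chrX:41400819-41678601) had 1 peak in knockdown 1, with its summit within 1 kb of the gene's lower coordinate, and 1 in knockdown 2 farther in. Gria2, whose subunit limits the calcium flow through AMPA channels, had 1 peak in knockdown size3 only, and Gria4 had none although it spans 378 kb.

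Kainate receptor genes were hit in knockdown 1 and knockdown size3 and in no other library. The 5 genes together held 28, 0 and 11 peaks in the knockdown libraries and none in the control libraries. The class density was 15.1 peaks per Mb in knockdown 1, above the all-gene 12.5, and 5.92 in knockdown size3, below the all-gene 10.1. Grik3 (chr4:125490259-125714173, 224 kb) held 12 in knockdown 1, or 51.3 per Mb of its window against 16.3 per Mb for genes of chromosome 4 and 12.5 for all genes, and only 18 of the 21775 genes held more. They ran over 205 kb, from chr4:125486338 to chr4:125691714, were 731 to 4023 bp wide, and held 26 to 164 reads at 3.45- to 6.49-fold. Its 4 knockdown size3 peaks touched none of those 12. Grik4 (chr9:42518182-42945000) and Grik5 (chr7:25009849-25075694), which encode the subunits of high agonist affinity, held 9 and 5 peaks in knockdown 1 and 3 each in knockdown size3. Grik2 (chr10:49093680-49790161), at 696 kb the longest of the class, had 2 and 1, and Grik1, at 395 kb, had none.

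The delta receptor genes encode channel-like subunits that bind cerebellins at synapses and are not gated by glutamate as the other classes are. Grid1 (chr14:34820003-35583387, 763 kb) had no control peak, none in knockdown 2, 3 in knockdown 1 and 9 in knockdown size3. Those 9 ran from chr14:34829014 to chr14:35330028 at 6.30- to 13.9-fold from 12 to 26 reads. Grid2ip (chr5:143357330-143391779), which encodes the scaffold protein delphilin, had 1 peak in control size3 and 1 in knockdown 1, in different places.

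Chromosome 6 itself stood apart in these lists. It held 23.8%, 16.7% and 12.6% of the peaks of the control libraries and 5.87%, 8.24% and 6.56% of those of the knockdown libraries, while 5.95% of all gene windows lie on it. Of the receptor windows 29.7% lie there, in 4 of the 46 genes. These 4 took 13 of 14, 2 of 3 and 5 of 12 receptor peaks in control and 17 of 85, 18 of 28 and 14 of 69 in knockdown. Without chromosome 6 the ratio of receptor to all-gene density came to 0.488, 2.25 and 0.776 in control and 0.613, 0.661 and 0.622 in knockdown. The number of receptor genes with a peak was then 1, 1 and 5 in control and 29, 9 and 24 in knockdown (difference 18.3, exact two-sided permutation p = 0.100). Whether the share of peaks on chromosome 6 has a technical source was not tested.

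**Figure D5:**
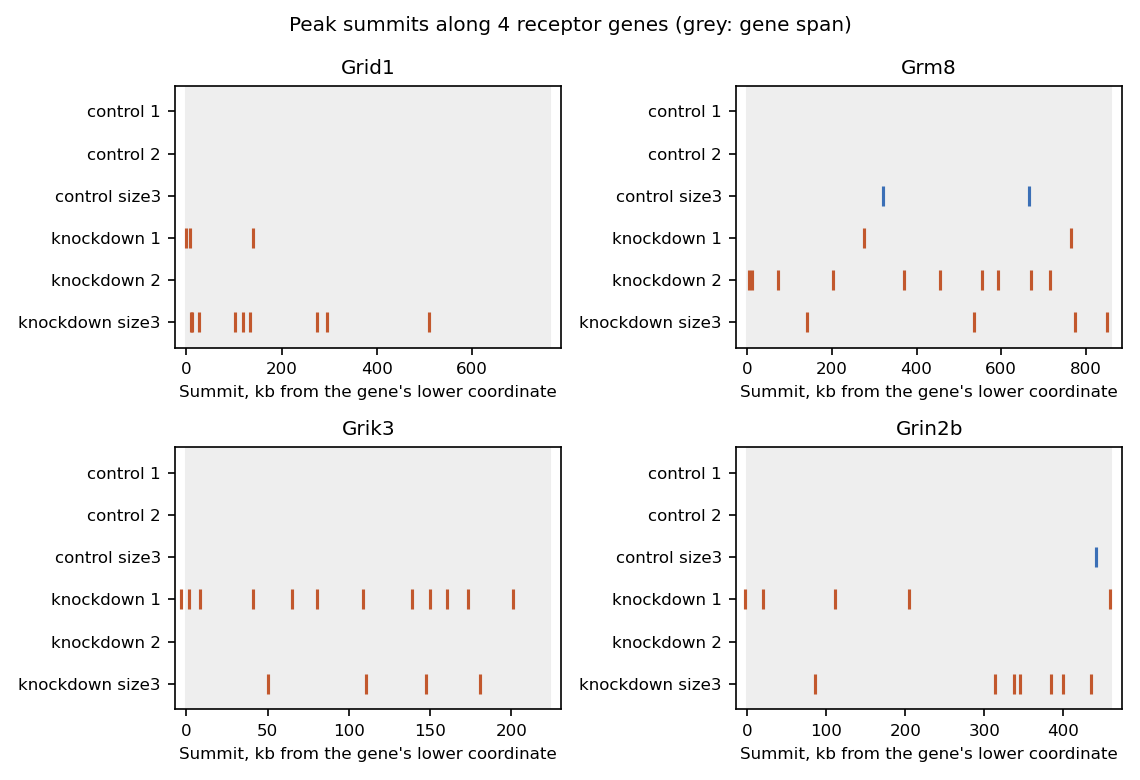
Peak summits (ticks) along Grid1, Grm8, Grik3 and Grin2b in each library, as kb from the lower coordinate of the gene; the grey field is the gene span, blue is control and orange knockdown. The 9 Grid1 ticks of knockdown size3, a pair of them nearly merged, lean to the lower end of the gene, the 10 Grm8 ticks of knockdown 2 are spread along it, and the 12 Grik3 ticks of knockdown 1 lie at other places than the 4 of knockdown size3.

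All 7 NMDA receptor genes held a peak in knockdown 1, and the same was true of knockdown size3. The class had 21, 1 and 17 peaks in the knockdown libraries, against 0, 0 and 2 in the control libraries. Per Mb that is 17.0, 0.810 and 13.8 in knockdown, above the all-gene density in knockdown 1 and knockdown size3 and below it in knockdown 2. Grin2b (chr6:135713221-136173615), which encodes the glutamate-binding subunit prominent in the developing brain, held 0, 0 and 1 in control and 5, 0 and 7 in knockdown; the 7 of knockdown size3 ran over 349 kb at 6.74- to 12.7-fold. Grin2a (chr16:9567901-9996083) held 5 peaks in knockdown 1 and 3 in knockdown size3 and none elsewhere, among them the receptor peak of highest fold enrichment in knockdown size3, 14.7 from 15 reads. Grin1 (chr2:25291177-25319187), the subunit every NMDA receptor needs, had 1 peak in each of those 2 libraries, inside the gene in knockdown 1 and in the flank beyond its upper coordinate in knockdown size3. Grin3a (chr4:49661611-49846023), a glycine-binding subunit gene, also had 1 in each.

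The 3 shortest NMDA receptor genes apart from Grin1 sit among close neighbours, and several of their peaks lay on those neighbours too. Grin2c (chr11:115249169-115267297) held 1 peak in control size3, 3 in knockdown 1 and 1 in knockdown size3; the window reaches Tmem104 on the lower side and Fdxr on the upper side, and each of these 5 peaks touched one of them. Grin2d (chr7:45831883-45871194) held 4, 1 and 3 in the knockdown libraries, of which the outer 2 of knockdown 1 touched Grwd1 and Kdelr1. Grin3b (chr10:79970397-79977190, 6.79 kb, the shortest of the 46) had 2 peaks in knockdown 1 and 1 in knockdown size3, all of them also on Tmem259. The wider of the 2, chr10:79972700-79980646, was 7947 bp with 767 reads, the widest peak in any receptor window. Grik5 had the same situation with Zfp574. In all, 8 of 85 receptor peaks in knockdown 1, 3 of 69 in knockdown size3 and 1 of 12 in control size3 touched a protein-coding gene other than a receptor gene, and the windows cannot tell to which gene such a peak belongs.

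Metabotropic receptor genes held peaks in every library, with 1, 2 and 4 in the control libraries and 13, 14 and 19 in the knockdown libraries. Per Mb that is 0.316, 0.631 and 1.26 in control, above the all-gene density in each list, and 4.10, 4.42 and 6 in knockdown, above it only in knockdown 2. Apart from 1 at Grm3 in control 2, these control peaks lay at Grm7 and Grm8 on chromosome 6. Genes of that chromosome held 1.41, 0.214 and 2.39 peaks per Mb in control. Grm7 (chr6:110645349-111567230, 922 kb), which encodes a presynaptic receptor of low glutamate affinity, was the only one of the 46 with a peak in all 6 lists, with 1, 1 and 2 in control and 3, 2 and 1 in knockdown. No 2 libraries placed a Grm7 peak at the same position. Its density was below that of chromosome 6 genes in every list except control 2, where it was 1.07 against 0.214 per Mb. How many of all protein-coding genes held a peak in all 6 lists was not counted. Grm8 (chr6:27275121-28135146, 860 kb), a receptor of the same presynaptic group, held 0, 0 and 2 in control and 2, 10 and 4 in knockdown. The 10 in knockdown 2 were more than at any other gene of that list, where the next held 8. They were spread over 713 kb, were 274 to 393 bp wide, and held 8 to 11 reads at 10.3- to 23.4-fold, each with a false discovery rate of 100%; their density was 11.5 per Mb against 2.61 for genes of chromosome 6.

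The other metabotropic genes were hit mainly in knockdown 1 and knockdown size3. Grm5 (chr7:87583981-88135063), a receptor that couples to phospholipase C, held 1, 0 and 4 peaks in the knockdown libraries, with none in control. Grm4 (chr17:27422387-27513826, 91.4 kb) held 2 in knockdown 1 and 6 in knockdown size3, the latter across 98.9 kb and so across its whole window at 59.1 per Mb. Grm6 (chr11:50850369-50866208), the receptor by which retinal ON bipolar cells sense glutamate, held 2 and 2. Grm3 (chr5:9485236-9725352) held 1 in control 2, of 47 reads at 6.01-fold, and 1 in knockdown 1. Grm2 had 1 peak, in knockdown size3.

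GABA-A receptor genes were the largest class, and those that were hit held few peaks. Of the 19, 1, 0 and 2 held a peak in the control libraries and 10, 5 and 6 in the knockdown libraries. The density was 3.49, 1.74 and 2.79 peaks per Mb in knockdown, against 12.5, 1.77 and 10.1 over all genes. No GABA-A gene held more than 3 peaks in a library. Gabrr1 (chr4:33132556-33163588), a rho subunit gene known from the retina, had 1 in knockdown 1 and 3 in knockdown size3. Gabrp (chr11:33550781-33578978), the pi subunit gene, had 2 in control size3 and 1 in knockdown 1. Gabra2 (chr5:70958392-71095849) had 1 in each of control size3, knockdown 1 and knockdown size3, and the control peak lay nearer the opposite end of the gene than the other 2. Gabrb1 (chr5:71657921-72149572) had 1 in each of control 1, knockdown 1 and knockdown 2, at 3 different places. Gabra5, an alpha subunit gene on the minus strand, had a peak at its start, the upper end of its span, in knockdown 1 and in knockdown size3, and another in knockdown 1 at its internal start. Gabrg3 (chr7:56716463-57387215) held 1 and 2 in these 2 libraries. Gabra4, Gabrb2, Gabre, Gabrg1, Gabrr2 and Gabrr3 each had a single peak in a single knockdown library, and Gabra3, Gabra6, Gabrd and Gabrq had none in any list.

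The receptor peaks of highest fold enrichment in each list were mostly at long genes. In control 2, Grm3 and Grm7 stood at 6.01-fold. Control size3 had Gria1 at 11.54-fold, Grin2c at 10.83-fold and Grm7 at 10.66-fold, from 15 or 16 reads each. Knockdown 1 had Grm8 at 11.15-fold from 31 reads and Grm7 at 9.42- and 9.1-fold. In knockdown 2 the top 3 were Grm8 at 23.4- and 20.8-fold and Gria1 at 20.16-fold, from 9 to 15 reads, and in knockdown size3 Grin2a at 14.7-fold, Grid1 at 13.86-fold and Grm8 at 13.6-fold, each from 15 reads. Fold enrichment here is the authors' value for each peak and is not comparable between lists; a median receptor peak held 50, 8 and 16 reads across the 3 knockdown lists.

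Across the 46 genes, 28 held a peak in at least 1 knockdown library and in no control library, 60.9% against 52.2% of all protein-coding genes. A peak in at least 1 control library was found at 11 (23.9%, against 6.73%), and each of those 11 held one in a knockdown library as well. Knockdown 1 and knockdown size3 both hit 25 of the genes, 8 were hit in knockdown 1 and not in knockdown size3, and 3 (Gria2, Grm2 and Gabrr2) the other way round. All 3 knockdown libraries hit 6, among them Gria1, Grin2d, Grm7 and Grm8. Such overlaps, between knockdown libraries or between control and knockdown, were not counted over all protein-coding genes. They are not read as a trait of receptor genes. Finally, 7 of the 46 had no peak in any library, the longest being Grik1 at 395 kb and Gria4 at 378 kb. Among all protein-coding genes, those with no peak are the ones outside the 52.2% and 6.73% above.

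Most peak positions in receptor windows came from 1 library, although 15 of the 25 genes hit in both knockdown 1 and knockdown size3 had at least 1 position in common. Merging all peaks that touched gave 196 regions in receptor windows, of which 180 (91.8%) came from 1 library. Knockdown 1 and knockdown size3 shared 15 regions, and no region was shared by knockdown 2 with another library. Counted by list, 17.6% of the knockdown 1 receptor peaks and 20.3% of those of knockdown size3 lay in such a shared region, against 9.16% and 11.6% of all peaks of these lists. One further region, at Grin2c, was shared by control size3 and knockdown 1 (chr11:115242453-115248769). In the second of 2 shared regions at Grin3b the knockdown size3 peak lay beyond the receptor window, and it was not counted in the 20.3%.

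Regions shared by these 2 libraries touched 15 of the 46 genes (32.6%), against 8.56% of all protein-coding genes. By length, 5 of 21 receptor genes of 200 kb and over had one (23.8%, against 20.9% of all genes of that length), 5 of 11 in the middle class (45.5%, against 13.7%) and 5 of 14 under 50 kb (35.7%, against 6.64%). Of the NMDA genes, Grin2a, Grin2c, Grin2d, Grin3a and Grin3b had a shared region. Others with one were the GABA-A genes Gabra2, Gabra5 and Gabrr1, and Grik5, Grid1, Grm4, Grm5 and Grm6. The shared regions at Grin2c, Grin3b and Grik5 also lay on the neighbours Fdxr, Tmem259 and Zfp574. That at Grm6 lay in the flank before the gene. The region at Grin3a (chr4:49844175-49846157) covered the upper end of the gene with 173 reads at 3.3-fold in knockdown 1 and 47 reads at 6.79-fold in knockdown size3. That at Gabra2 (chr5:71094742-71096783) had 129 reads at 4.64-fold and 18 reads at 7.38-fold, the knockdown size3 peak ending before the promoter given above. The region at the upper end of Gabra5 had 121 reads at 3.61-fold and 12 reads at 8.09-fold. At Gabrr1 (chr4:33162399-33162872) there were 26 reads at 8.79-fold and 11 at 8.56-fold.

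Most receptor peaks lay inside the genes and away from their ends. Summits within 1 kb of either end of a span numbered 0 in each control library, 11 of 85 in knockdown 1 (12.9%), 1 of 28 in knockdown 2 (3.57%, at Gabrb2) and 7 of 69 in knockdown size3 (10.1%). The 11 in knockdown 1 were at 11 different ends, those of Gria3, Grik5, Grid1, Grin3a, Grin3b, Grm6, Gabra2, Gabra5, Gabre and Gabrr1 among them. In knockdown size3 they were at Grin3a, Grin3b, Grm5, Gabra2, Gabra5, Gabrg3 and Gabrr1. The remaining peaks of knockdown 1 were 64 inside a gene and 10 in a flank, and those of knockdown size3 55 and 7. No share over all protein-coding genes stands beside these counts, and receptor genes are long, so they are not read as a trait of receptor genes.

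Other genes of glutamate and GABA synapses, a list of 60 scaffold, auxiliary, transport and synthesis genes and the GABA-B receptors, were counted in the same way. A peak was found at 2, 0 and 8 of the 60 in the control libraries and at 40, 11 and 29 in the knockdown libraries. As percentages the knockdown values are 66.7%, 18.3% and 48.3%. They lie below the 71.7%, 26.1% and 60.9% of the receptor genes and above the 43.9%, 7.99% and 35.6% of all protein-coding genes. The list's median gene length is 63.3 kb, against 160 kb for the receptor genes and 17.2 kb for all protein-coding genes. Of the 60 genes, 10 had a region shared by knockdown libraries, where 8.56% of all protein-coding genes and 32.6% of the receptor genes had one. Dlgap1 (852 kb), a postsynaptic scaffold gene, was hit in 5 libraries, with 1, 0 and 2 peaks in control and 11, 2 and 3 in knockdown. Grip1, which encodes a scaffold of AMPA receptors, held 1, 0 and 0 in control and 10, 2 and 9 in knockdown. Slc1a1, a glutamate transporter gene, held 0, 0 and 1 and 1, 2 and 1. Abat, the GABA transaminase gene, and the scaffold genes Dlg2 and Dlgap4 were each hit in 3 libraries. Both GABA-B receptor genes held a peak in knockdown 1 and 1 of them in knockdown size3, and neither in any other list.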

How the data were processed

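The values come from 6 peak lists, 1 for each of 3 control and 3 knockdown immunoprecipitates. The submitters' processing notes name cutadapt for trimming, Bowtie2 for alignment and GRCm38 as the build. Per the file headers, the authors ran MACS 1.4.2 on each immunoprecipitate with its own input, unpooled, with a p cutoff at 1.00e-05, bandwidth 300 and duplicates reduced to 1 read per position. In the deposited lists the counts are reads within a peak. The deposited score is the negative log10 of the peak's p-value times 10, the deposited fold enrichment is a ratio to the local background, and the deposited false discovery rate, in percent, comes from a swap of immunoprecipitate and input. These belong to the authors and describe peaks within a list only. A list depends on depth, input and duplicates, so a longer list may reflect any of them.

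Gene spans came from the RefSeq table of GRCm38.p6, without strand or exons; 108 of 21883 genes, none of them a receptor gene, were left out because their coordinates lie before 3 Mb of a chromosome other than Y and belong to scaffolds. Promoter sequences and strands came from RefSeq. Exons and introns were not analysed here. Scripts used Python 3.11.15, numpy 2.4.6, pandas 2.3.3, scipy 1.17.1 and matplotlib 3.10.9. Groups were compared by exact two-sided permutation of the difference of means over 20 assignments of 6 libraries. Counting was tested on simulated peaks, where 200 of 200 planted genes were found among 21775. The members, the list of 60 other synapse genes and the tests were chosen with earlier results of these data known. By rule, coordinates or values are given for genes with a peak in at least 2 libraries or in a control library, for the 3 peaks of highest fold enrichment in each library, and for at most 6 other synapse genes. Values of 5 of the 46 genes are not reported here by name; all 46 enter the counts and densities. Alternatives changed the flank, the overlap rule, the score, the false discovery rate, the list length and the members, left out each library, scaled by reads and paired the libraries by label.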

Additional observations from a re-analysis of the deposited data

How the results depend on the processing

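The knockdown minus control difference kept its direction for the number of receptor genes with a peak and for the density under 15 of 16 alternatives each, and for the share of peaks under 14 of 14. With lists of equal length (198 peaks) it reversed, to -1 gene and -0.213 peaks per Mb; the longer lists lose most of their peaks in that step. No p can fall below 0.1 with 3 against 3 libraries, so the direction alone is compared. Leaving out each library in turn gave 15.3 to 25.8 genes, 3.10 to 5.37 peaks per Mb and -1.19 to -0.561 percentage points. The mean ratio of receptor to all-gene density in knockdown was 0.783 as reported. It moved to 0.212 with a score of at least 100, 0.361 with a false discovery rate of at most 5% and 0.325 with lists of equal length. By library, the ratios were 0.540, 1.26 and 0.546 as reported. They were 0.493, 0 and 0.142 by score, 0.529, 0 and 0.555 by false discovery rate, and 0.975, 0 and 0 with equal lists. Knockdown 2 held no receptor peak in any of these settings, which lowered each mean. The cause of the other shifts was not tested. At a false discovery rate of at most 5% no control peak lay in a receptor window, so the control ratio and the difference in share gave no value there; receptor genes with a peak numbered 33, 0 and 19 in knockdown 1, 2 and size3, and with a score of at least 100 they were 0, 0 and 1 in control and 9, 0 and 1 in knockdown. Divided by reads after duplicate removal, as a rate per 10000000 reads, the difference was 21.4 genes and 4.34 peaks per Mb. The labels 1, 2 and size3 recur in both groups, but deviations of same-numbered libraries from their group means correlated at 0.174, -0.237 and 0.288 over the 46 genes, so the numbers were not taken as pairs; with the replicate block the differences were 19.7 genes, 4.07 peaks per Mb and -0.822 percentage points, each with p = 0.250, the smallest an exact sign-flip test of 3 pairs can give. The counts at single genes also moved. With lists of equal length the 12 peaks at Grik3 and 9 at Grik4 in knockdown 1, the 10 at Grm8 in knockdown 2, and the 9 at Grid1, 7 at Grin2b and 6 at Grm4 in knockdown size3 each fell to 0. With a score of at least 100, the counts were 2 at Grik3, 1 at Grik4 and 0 at the other four. At a false discovery rate of at most 5% the counts were 12 at Grik3, 9 at Grik4, 0 at Grm8, 5 at Grid1, 4 at Grin2b and 5 at Grm4.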
